A study of Homo sapiens with 6 samples.

Results

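The genes described here build the nuclear pore or carry cargo through it. The rule that picks them reads gene names alone and takes protein-coding genes whose symbol starts as a numbered NUP, IPO, XPO, KPNA or TNPO gene, XPOT, and KPNB1, TPR, NDC1, POM121, RAE1, AAAS, SEH1L, RAN, RCC1 and CSE1L. That gave 55 of the 58735 genes in the count table. The cells were HCT-8, an established line from a human colon adenocarcinoma kept as monolayers, and their RNA was sequenced in 2 groups of 3 samples. The first group was treated with 5-fluorouracil (5-FU), a fluoropyrimidine that inhibits thymidylate synthase and enters RNA and DNA, at the dose that inhibits by 10%. The second was an untreated control of the same line. The labels used here state neither the length of the treatment nor the molar dose. They also do not say whether the 3 samples of each group grew as separate cultures, and p-values then measure only how far these samples spread, which may be technical.

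The nuclear pore complex is a ring of nucleoporins set in the nuclear envelope. An outer ring of Y-shaped complexes and an inner ring form its scaffold, membrane proteins anchor it, nucleoporins rich in phenylalanine-glycine repeats fill its channel, and filaments and a basket project into the cytoplasm and the nucleus. Importins and exportins carry proteins and RNAs through the channel, importin alpha adaptors link classical import signals to importin beta, and the GTPase Ran gives the direction. In dividing human cells the pore is taken apart at mitosis and rebuilt afterwards, and Ran also guides spindle assembly.

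Total gene counts were 18459939 to 20613228 in the 5-FU libraries and 21659252 to 23495607 in the control libraries. Mitochondrially encoded genes took 25.5% to 28.5% of counts after 5-FU and 4.66% to 4.88% in control. Colorectal epithelial markers were present, with 241 ± 28.4 CPM of EPCAM in 5-FU cells and 465 ± 58.2 CPM in control cells (mean ± SD, n = 3 each), where CPM are counts scaled to library size with TMM factors. CEACAM5 was near 0, at 12 to 24 counts in 5-FU and 1 to 3 counts in control libraries. The 14 markers of other cell types summed to 44.5 to 79.0 CPM in 5-FU and 25.2 to 29.8 CPM in control libraries. COL1A1 was the most abundant, with 42.4 ± 16.1 CPM in 5-FU and 15.2 ± 3.06 CPM in control cells (mean ± SD, n = 3 each). The other collagens of the list were near 0. COL1A2 had at most 1 count in any library, and COL3A1 had 13, 8 and 12 counts in 5-FU and 1, 1 and 3 in control libraries. INS had no count in any library.

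Most genes of the pore and of nuclear transport were lower after 5-FU: 45 of the 54 that could be tested were lower, 3 were higher and 6 were not called. A call means a Benjamini-Hochberg adjusted p under 0.05 from the edgeR quasi-likelihood fit. Over all 19771 tested genes 33.9% were lower and 36.3% higher. With upper-quartile in place of TMM factors, 37 members were lower and 4 higher, and over all genes 4614 were lower and 9602 higher, against 6706 lower and 7171 higher with TMM. The median log2 fold change was -0.89 over the tested members, against 0.09 over all tested genes. With TMM factors, 24 of the members called lower fell by at least 2-fold and 4 by at least 4-fold. How many of all tested genes passed these cuts was not counted. Those 4 were KPNA2, RAN, CSE1L and NDC1. Both counts depend on the scaling. With upper-quartile factors KPNA2 (log2 fold change -2.84) still fell by at least 4-fold, but RAN (-1.91), CSE1L (-1.80) and NDC1 (-1.71) fell by less. With the same factors TNPO3 (-0.87), NUP188 (-0.86), SEH1L (-0.81) and NUP54 (-0.79) were among members that no longer fell by 2-fold. Each 5-FU library lay below each control library for 44 members, where 35.9% of all tested genes did so. Each lay above for NUP210L, KPNA5 and IPO13, where 38.4% of all tested genes did so. The untested member was KPNA7, an importin alpha of oocytes and early embryos, with 4, 6 and 13 counts after 5-FU and 4, 3 and 2 in control. Of the tested members 53 had enough counts in each group taken alone, and IPO4 passed only through both together. In bulk RNA, fewer cells that express a gene and less of its RNA per cell cannot be told apart.

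**Figure D1:**
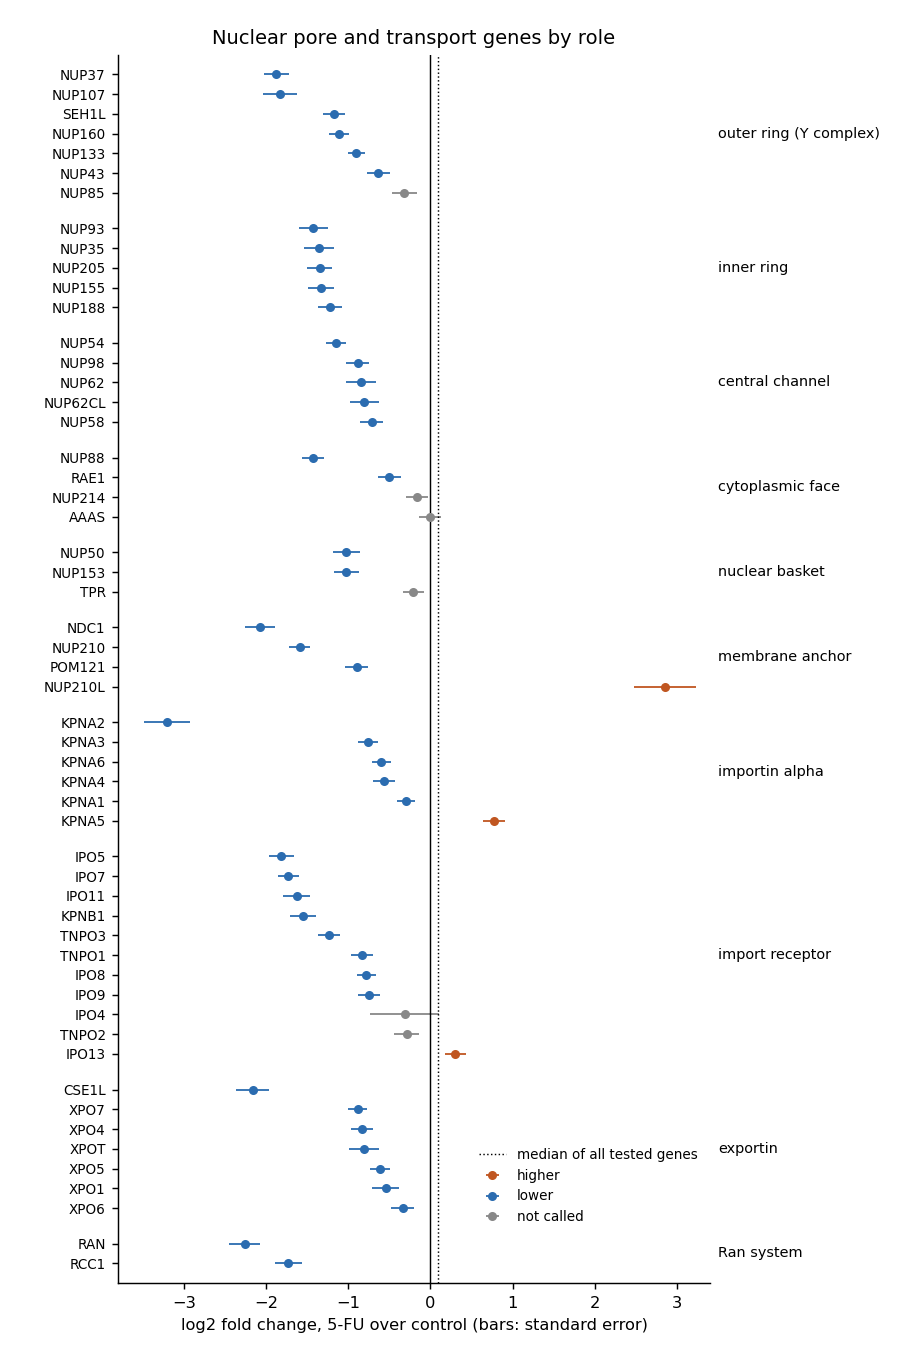
Log2 fold change of 5-FU over control for the 54 tested members, grouped by role, with the standard error as bars. Blue points were lower, orange points higher and grey points not called; the dotted line is the median of all tested genes, 0.09, and most points lie between -0.5 and -2.

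The members are abundant, and abundant genes as a whole tended to be lower. When tested genes were split by mean CPM into 5 bins of equal size, 39 of the 54 members lay in the highest bin, where 60.3% of genes were lower, 17.8% were higher and the median log2 fold change was -0.53. In that bin 35 of the 39 members were lower, with a median of -0.90. In the next bin 8 of 10 members were lower at a median of -0.89, against 53.5% and -0.39 for its genes. Genes of G2 and mitosis fell far more: all 20 genes of a fixed list were lower, the median log2 fold change was -4.14, and the summed level was 167 to 330.3 CPM in 5-FU and 3217 to 5785 CPM in control libraries. Their part in the change of the members was not tested.

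**Figure D2:**
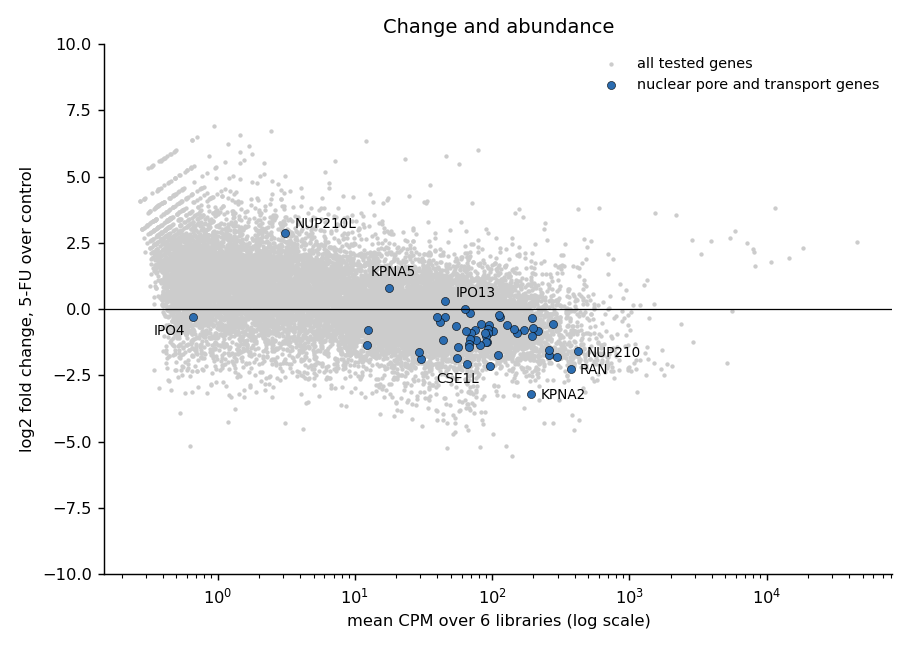
Log2 fold change against mean CPM on a log axis for all tested genes (grey) and the tested members (blue), without genes that had no count in 1 group. Most members sit at the abundant end and below 0, with NUP210L, KPNA5 and IPO13 above 0.

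Promoter sequences are printed for the 4 members that fell at least 4-fold with TMM factors and for NUP210L, which rose most. They are RefSeq windows on GRCh38.p14 from 250 bases before to 50 bases after the first start listed, read in the sense of the gene. Capitals mark matches on either strand to any motif searched, listed after the sequences.
KPNA2 (chr17:68035485-68035784, plus strand): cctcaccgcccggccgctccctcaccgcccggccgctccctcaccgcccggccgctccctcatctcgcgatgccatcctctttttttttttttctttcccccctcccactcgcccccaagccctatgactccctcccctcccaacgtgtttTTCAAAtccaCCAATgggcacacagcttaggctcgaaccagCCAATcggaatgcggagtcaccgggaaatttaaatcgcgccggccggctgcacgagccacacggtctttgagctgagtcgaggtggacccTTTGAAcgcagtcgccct
RAN (chr12:130871816-130872115, plus strand): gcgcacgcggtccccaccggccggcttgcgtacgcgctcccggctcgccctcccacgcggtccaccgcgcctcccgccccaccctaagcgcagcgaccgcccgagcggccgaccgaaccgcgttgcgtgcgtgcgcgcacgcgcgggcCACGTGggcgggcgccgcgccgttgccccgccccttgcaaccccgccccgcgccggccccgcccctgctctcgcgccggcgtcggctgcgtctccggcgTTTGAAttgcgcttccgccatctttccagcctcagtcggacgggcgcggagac
CSE1L (chr20:49046062-49046361, plus strand): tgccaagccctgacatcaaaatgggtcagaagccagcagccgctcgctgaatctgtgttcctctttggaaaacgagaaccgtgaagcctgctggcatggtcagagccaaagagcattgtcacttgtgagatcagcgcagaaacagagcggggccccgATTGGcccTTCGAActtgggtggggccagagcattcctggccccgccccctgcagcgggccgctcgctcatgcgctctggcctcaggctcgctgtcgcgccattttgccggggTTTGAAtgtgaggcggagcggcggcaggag
NDC1 (chr1:53838247-53838546, minus strand): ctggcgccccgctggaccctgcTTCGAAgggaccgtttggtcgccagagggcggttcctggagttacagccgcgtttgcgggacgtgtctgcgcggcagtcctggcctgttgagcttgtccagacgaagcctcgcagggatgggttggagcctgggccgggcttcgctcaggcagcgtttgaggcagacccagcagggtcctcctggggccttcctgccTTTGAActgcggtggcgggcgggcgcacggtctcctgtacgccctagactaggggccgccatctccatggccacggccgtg
NUP210L (chr1:154155067-154155366, minus strand): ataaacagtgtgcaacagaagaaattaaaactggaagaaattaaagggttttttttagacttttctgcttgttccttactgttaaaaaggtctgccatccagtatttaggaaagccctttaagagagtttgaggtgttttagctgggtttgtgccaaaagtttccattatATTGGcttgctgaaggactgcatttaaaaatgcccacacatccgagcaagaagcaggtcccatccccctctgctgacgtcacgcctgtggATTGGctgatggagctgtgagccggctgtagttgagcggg

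Each motif was searched on both strands. CCAAT is the box that NF-Y binds. Sites of the CHR kind were taken as TTTGAA and as TTCGAA. Sites of the E2F kind were taken as TTTCGCGC and as TTTGGCGC. The E-box was CACGTG, the ETS core was CCGGAAGT and the core of NRF1 sites was GCGCATGC. Matches overlapped only as GCGCATGC on opposite strands, in NUP107, NUP50 and NUP62. The CHR element is known from promoters of G2 and mitosis genes. TTTGAA stood in all 4 promoters of the members that fell at least 4-fold with TMM factors. In KPNA2 it lay at -99 and 32 from the start, in RAN at -3, in CSE1L at 20 and in NDC1 at -31. The related TTCGAA was in CSE1L at -85 and in NDC1 at -228. Neither was in the NUP210L window, which held CCAAT at -80 and 10.

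Of the 55 members 49 had a promoter in the RefSeq table. TTTGAA stood in 11 of them (22.4%), which were NDC1, NUP35, IPO11, NUP153, NUP205, NUP98, IPO7, NUP37, RAN, KPNA2 and CSE1L, against 15.4% of 27305 promoters of all genes in the table and 9.86% of 11862 promoters of tested genes. The size of the fall was known when the next count was made, and the 2-fold cut was set with TMM factors. TTTGAA was in 10 of 23 members lower by at least 2-fold and in 1 of the 26 others. With upper-quartile factors NUP35 (-0.99), NUP205 (-0.99) and NUP153 (-0.66), which hold TTTGAA, fell by less than 2-fold. So did members without it, such as NUP188 (-0.86), and the split was not recounted. CCAAT was in 22 members (44.9%) and in 35.8% of promoters of tested genes, with 9 of the 23 and 13 of the 26. CCGGAAGT was in 9 of 49 members (18.4%) and in 7.87% of promoters of tested genes; it was in 5 of the 23 and 4 of the 26. CACGTG was in 7 members (14.3%) and in 9.79% of promoters of tested genes, with 4 of the 23 and 3 of the 26. GCGCATGC was in 5 members (10.2%) and in 5.13% of promoters of tested genes, with 4 of the 23 and 1 of the 26. TTCGAA was in 1.73% of promoters of tested genes, with 2 of the 23 and 0 of the 26. TTTCGCGC, in 0.877% of promoters of tested genes, was in IPO7 and IPO11, and TTTGGCGC, in 1.0% of them, was in NUP155. IPO7, IPO11 and NUP155 were all among the 23. These counts describe letters in fixed windows.

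Ran and its exchange factor fell together. RAN (ENSG00000132341), the GTPase whose bound nucleotide tells nucleus from cytoplasm, is on chromosome 12, 130871879 to 130877678, plus strand of GRCh38. It had 94.5, 145 and 147 CPM in the 5-FU libraries and 635, 522 and 698 CPM in the control libraries, with no overlap and the lowest value in 5-FU replicate 1. RAN was 4.8-fold lower (log2 fold change -2.26, SE 0.19, edgeR adjusted p = 2.90e-06). RCC1, which loads Ran with GTP on chromatin, had 52.9, 54.0 and 47.1 CPM after 5-FU and 174, 129.8 and 208 CPM in control. Its groups were also apart (log2 fold change -1.73, SE 0.16, edgeR adjusted p = 5.31e-06). Processed copies of RAN are annotated and could share its reads: RANP1 had 3, 8 and 2 counts after 5-FU and 37, 26 and 38 in control, and RANP4 had 39, 19 and 31 after 5-FU and 6, 8 and 5 in control, small beside the 1856 or more of RAN itself. The Ran-binding protein RANBP1, a partner in GTP hydrolysis that the name rule does not take in, fell as well (log2 fold change -2.48, SE 0.22, edgeR adjusted p = 3.60e-06), with 32.3, 53.2 and 49.1 CPM after 5-FU and 244, 191 and 317 CPM in control.

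The importin alpha genes changed their balance. KPNA2 (ENSG00000182481, chromosome 17, 68035519 to 68046842, plus strand) was the member that fell most. It had 28.9, 41.7 and 42.5 CPM in 5-FU libraries and 366, 205 and 473 CPM in control libraries, 37.7 ± 7.61 against 348 ± 135 (mean ± SD, n = 3 each). That is 9.23-fold lower (log2 fold change -3.21, SE 0.28, edgeR adjusted p = 3.14e-06), and control replicate 2 held the lowest control value, still well above every 5-FU value. The other adaptors moved much less. KPNA3, of the same importin alpha family, had 67.8, 70.3 and 70.2 CPM after 5-FU and 124, 102 and 128 CPM in control (log2 fold change -0.76, SE 0.12, edgeR adjusted p = 1.68e-04). KPNA6 (-0.60), KPNA4 (-0.57) and KPNA1 (-0.30) were lower by log2 fold changes of under 1. With upper-quartile factors the calls of KPNA6 (-0.24, edgeR adjusted p = 0.0701) and KPNA4 (-0.21, edgeR adjusted p = 0.125) were lost. The call of KPNA1 was lost in 7 of 18 alternatives, and in 1 more, upper-quartile scaling, its log2 fold change was 0.063. Exons of an antisense gene cover 16.3% of the exonic bases of KPNA1.

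KPNA5 (ENSG00000196911, chromosome 6, 116681187 to 116741866, plus strand) went the other way. It had 22.2, 21.3 and 23.8 CPM after 5-FU and 13.5, 13.6 and 12.1 CPM in control, so that the groups were apart with little spread in either. The rise was 1.71-fold (log2 fold change 0.78, SE 0.13, edgeR adjusted p = 3.15e-04), and it was called in all 18 alternatives. Levels per gene length show the makeup of the family. KPNA2 made up 17.8%, 23.1% and 24.05% of importin alpha FPKM (fragments per kilobase, with the authors' scaling by library size) in the 5-FU libraries, against 62.9%, 53.2% and 69.1% in control libraries. KPNA3 made up 27.3% to 29.3% after 5-FU and 13.1% to 18.5% in control. KPNA6 made up 22.5% to 27.5% after 5-FU and 9.39% to 15.5% in control. KPNA2 was the most abundant adaptor in every control library and KPNA3 in every 5-FU library. The summed importin alpha level was 46.7 to 54.9 FPKM after 5-FU and 125 to 228 FPKM in control.

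**Figure D3:**
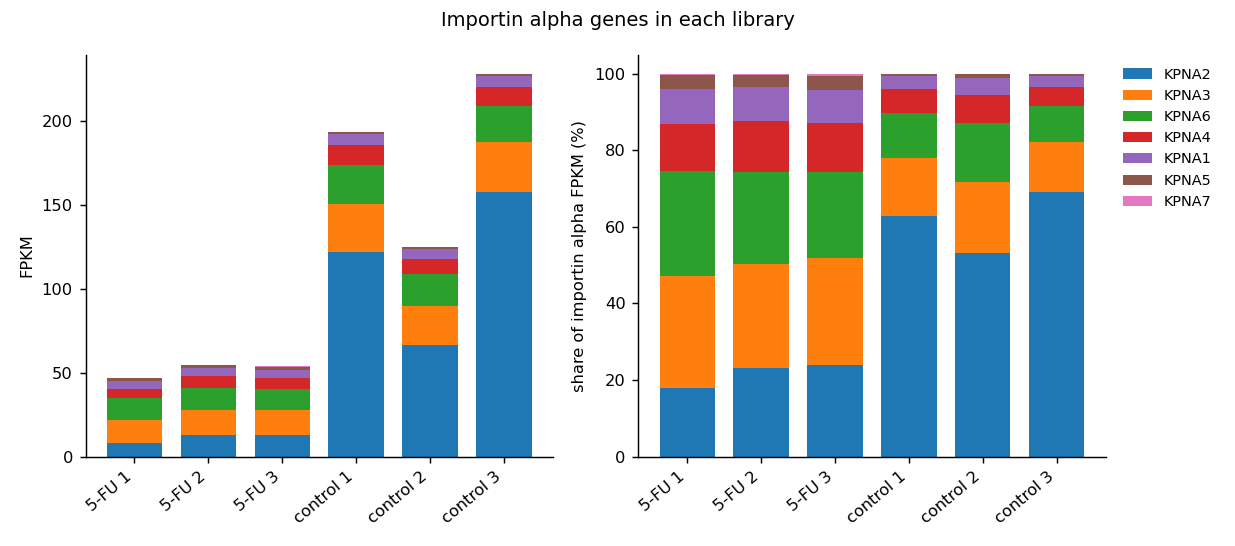
FPKM of the 7 importin alpha genes in each library, stacked (left), and as a share of their sum (right). KPNA2 takes 17.8% to 24.05% in 5-FU libraries and 53.2% to 69.1% in control libraries.

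Of the 11 import receptors, which bind cargo directly or through an adaptor, 8 were lower and 1 higher. Over all tested genes 33.9% were lower and 36.3% higher, and in the bin of highest mean CPM 60.3% were lower. IPO7 and IPO5, known as importers of ribosomal proteins among other cargo, fell most clearly. IPO7 had 106, 133 and 122 CPM after 5-FU and 389, 393 and 417 CPM in control (log2 fold change -1.73, SE 0.13, edgeR adjusted p = 1.67e-06). IPO5 had 112, 145 and 138 CPM after 5-FU and 468, 397 and 521 CPM in control (log2 fold change -1.81, SE 0.15, edgeR adjusted p = 2.89e-06). Both groups of values were far apart for each gene, where 35.9% of all tested genes were lower without overlap. A copy of IPO5, IPO5P1, had 361, 229 and 267 counts after 5-FU and 195, 163 and 143 in control, and was higher (log2 fold change 0.89). IPO11, an importer of ubiquitin-conjugating enzymes, had 13.9, 13 and 16.4 CPM after 5-FU and 44.8, 36.2 and 53.0 CPM in control (log2 fold change -1.63, SE 0.16, edgeR adjusted p = 7.06e-06). Other genes on its strand, mostly LRRC70, cover 22.6% of its exonic bases. KPNB1, importin beta itself, had 116, 143 and 135 CPM after 5-FU and 410.1, 311 and 433 CPM in control, a log2 fold change of -1.55.

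The transportins and the other importins were mixed, with 4 lower, 1 higher and 2 not called, where 33.9% of all tested genes were lower. TNPO3, which imports SR splicing factors, had a log2 fold change of -1.23, and TNPO1, which imports hnRNP proteins, of -0.83. IPO8, a relative of IPO7, was lower at -0.78 and IPO9, a histone importer, at -0.75. TNPO2, a close relative of TNPO1, was not called (-0.29, edgeR adjusted p = 0.0989). IPO4 was not called either (-0.32, edgeR adjusted p = 0.511), on 15, 12 and 8 counts after 5-FU and 17, 10 and 20 in control. Exons of another protein-coding gene on its strand cover 69.3% of its exonic bases, and reads in that stretch cannot be assigned from the tables. IPO13, which works in import and export, had 52.5, 47.9 and 49.1 CPM after 5-FU and 36.8, 37.9 and 46.6 CPM in control. Its lowest 5-FU value was just above its highest control value (log2 fold change 0.30, SE 0.13, edgeR adjusted p = 0.0483), and the call was lost in 13 of 18 alternatives.

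All 7 exportins were lower with TMM factors, where 33.9% of all tested genes and 60.3% of those in the bin of highest mean CPM were. With upper-quartile factors 4 of the 7 were lower, where 23.3% of all tested genes were. CSE1L, which returns importin alpha to the cytoplasm, fell most (ENSG00000124207, chromosome 20, 49046246 to 49096960, plus strand). It had 25.7, 42.8 and 37.7 CPM after 5-FU and 164, 121 and 191 CPM in control (log2 fold change -2.17, SE 0.21, edgeR adjusted p = 5.31e-06), with no overlap. KPNA2 and its exporter were both among the 4 members that fell by at least 4-fold with TMM factors. XPO7, an exportin of broad range, had 56.8, 67.3 and 63.4 CPM after 5-FU and 117, 113 and 117 CPM in control (log2 fold change -0.89, SE 0.11, edgeR adjusted p = 3.41e-05). XPO4, which exports the translation factor eIF5A, had 67.0, 77.6 and 73.7 CPM after 5-FU and 139, 107 and 143 CPM in control (log2 fold change -0.84, SE 0.13, edgeR adjusted p = 2.00e-04). Neither gene's groups overlapped, where 35.9% of all tested genes were lower without overlap, and the spread of XPO7 within control was small.

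XPO5, which exports microRNA precursors, had a log2 fold change of -0.61, and of -0.25 with upper-quartile factors, where its call was lost (edgeR adjusted p = 0.0614). XPO1, the exportin of leucine-rich export signals, had 239, 206 and 228 CPM after 5-FU and 362, 249 and 373 CPM in control (-0.55, edgeR adjusted p = 0.00979). The call of XPO1 was lost with upper-quartile factors (-0.18, edgeR adjusted p = 0.290) and at a mean count of at least 50 (-0.29, edgeR adjusted p = 0.117). XPO6, the actin exporter, had 157, 188 and 171 CPM after 5-FU and 230.1, 179.9 and 241 CPM in control. XPO6 was the only called member whose groups overlapped (log2 fold change -0.34, SE 0.14, edgeR adjusted p = 0.0493), its call was lost in 9 of 18 alternatives, and in 1 more, upper-quartile scaling, its log2 fold change was 0.025. XPOT, the tRNA exporter, had 105, 119 and 149 CPM after 5-FU and 176, 281 and 197 CPM in control (log2 fold change -0.81, SE 0.19, edgeR adjusted p = 0.00234). Its highest control value came from replicate 2, the library in which most other members were lowest.

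Levels per gene length put these genes in a different order in the 2 groups. By mean FPKM the leading members after 5-FU were RAN (25.2), NUP210 (24.2), XPO6 (22.9), XPO1 (18) and KPNB1 (16.1). In control they were RAN (133), KPNA2 (115), NUP210 (80.5), IPO7 (57.3) and KPNB1 (52.1). KPNA2 ranked 17 of 55 after 5-FU, at 11.3 FPKM, and 2 in control. AAAS ranked 10 after 5-FU and 25 in control, and IPO13 ranked 21 after 5-FU and 47 in control. In 5-FU libraries RAN spread from 17.7 to 29.2 FPKM and NUP210 from 23.2 to 25.1, so the order of these leaders does not exceed their spread.

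**Figure D4:**
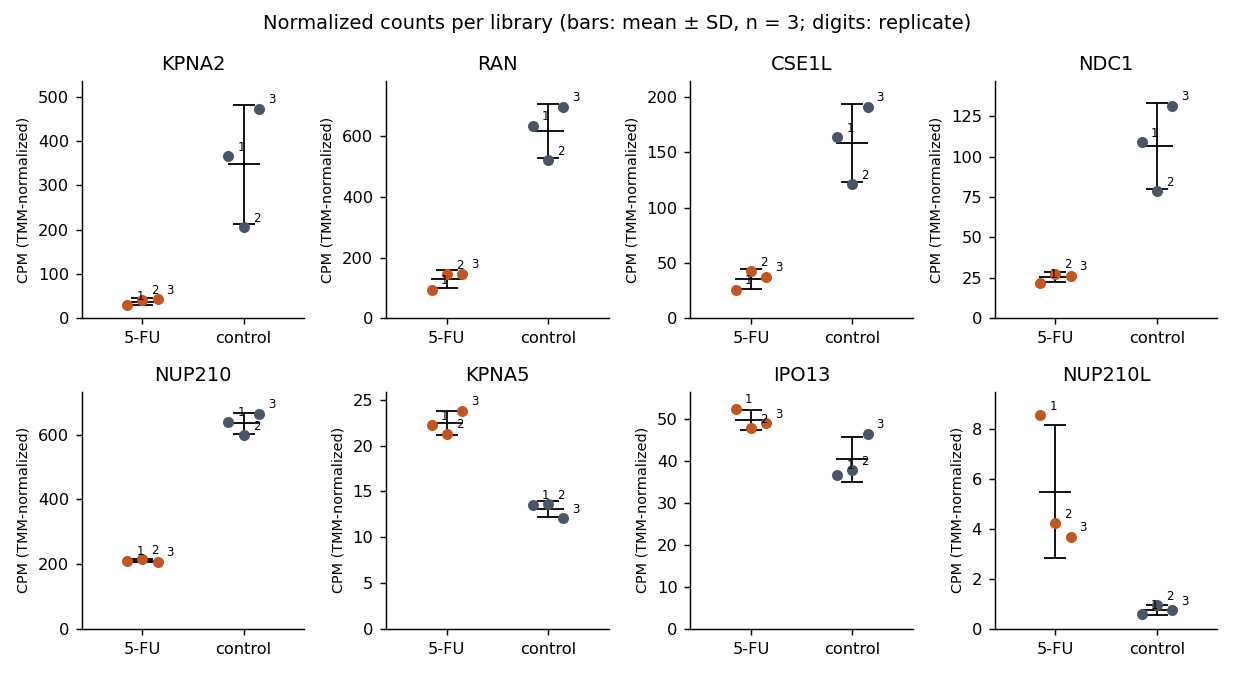
Normalized counts (CPM, linear axes from 0) of 8 members in each library, with mean and SD of 3. KPNA2, RAN, CSE1L, NDC1 and NUP210 lie lower in 5-FU libraries, and KPNA5, IPO13 and NUP210L lie higher.

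The pore scaffold was lower throughout the inner ring, and unevenly in the outer ring. All 5 inner ring genes were lower, where 33.9% of all tested genes and 60.3% of those in the bin of highest mean CPM were. They fell by similar amounts, with log2 fold changes between -1.43 and -1.23. NUP205, a large inner ring subunit, had 41.9, 53.0 and 42.7 CPM after 5-FU and 122, 94.6 and 134 CPM in control (log2 fold change -1.35, SE 0.15, edgeR adjusted p = 1.55e-05). NUP155, which links the ring to the membrane, had 32.2, 43.3 and 39.2 CPM after 5-FU and 104, 77.0 and 109 CPM in control (log2 fold change -1.34, SE 0.16, edgeR adjusted p = 2.15e-05). NUP188, a relative of NUP205, had 51.6, 55.6 and 54.5 CPM after 5-FU and 132, 98.4 and 148 CPM in control (log2 fold change -1.23, SE 0.15, edgeR adjusted p = 2.49e-05). None of these 3, named for their small p, overlapped between groups, where 35.9% of all tested genes were lower without overlap. Control replicate 2 was the lowest control library for each. NUP93 (-1.43) and NUP35 (-1.36) completed the ring.

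Of the 7 outer ring genes measured here 6 were lower and NUP85 was not called, where 33.9% of all tested genes were lower. In the bin of highest mean CPM 60.3% were lower. NUP37, a partner of NUP160, had 11.2, 14.4 and 13.3 CPM after 5-FU and 47.2, 40.6 and 55.2 CPM in control (log2 fold change -1.88, SE 0.15, edgeR adjusted p = 2.52e-06). NUP107, in the stem of the Y, had 19.4, 28.5 and 24.6 CPM after 5-FU and 87.4, 61.3 and 109.7 CPM in control (log2 fold change -1.83, SE 0.21, edgeR adjusted p = 1.54e-05). Both fell more than 3-fold with TMM factors, with clear gaps between the groups, where 35.9% of all tested genes were lower without overlap. With upper-quartile factors NUP37 (-1.52) and NUP107 (-1.47) fell by less than 3-fold. NUP160, which lies in an arm of the Y complex, had 43.0, 45.4 and 42.1 CPM after 5-FU and 100, 81.4 and 102 CPM in control (log2 fold change -1.12, SE 0.12, edgeR adjusted p = 1.30e-05). SEH1L (-1.17), NUP133 (-0.90) and NUP43 (-0.64) were lower, and the call of NUP43 was lost with upper-quartile factors (-0.28, edgeR adjusted p = 0.0651). NUP85 had a log2 fold change of -0.32 (edgeR adjusted p = 0.0789), and was called lower in 5 of 18 alternatives.

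All 5 genes placed with the central channel were lower, where 33.9% of all tested genes were. In the bin of highest mean CPM 60.3% were lower. NUP54, NUP58 and NUP62 form the channel trimer, and NUP98 carries GLFG repeats. NUP54 had 25.1, 27.9 and 28.9 CPM after 5-FU and 65.6, 57.0 and 59.4 CPM in control (log2 fold change -1.15, SE 0.12, edgeR adjusted p = 8.83e-06). NUP98 had 97.3, 113 and 110.1 CPM after 5-FU and 211, 164 and 217 CPM in control (log2 fold change -0.89, SE 0.14, edgeR adjusted p = 1.50e-04). NUP58 had 129.9, 149.9 and 173 CPM after 5-FU and 264, 215 and 265 CPM in control (log2 fold change -0.72, SE 0.14, edgeR adjusted p = 8.75e-04). The groups were apart in all 3, where 35.9% of all tested genes were lower without overlap. NUP62 (-0.85) and NUP62CL (-0.80) fell as well, and exons of other genes cover 21.1% of the exonic bases of NUP62.

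The outward faces of the pore were mixed. On the cytoplasmic side NUP88, a partner of NUP214, had 27.4, 33.4 and 31.2 CPM after 5-FU and 82.8, 71.5 and 93.6 CPM in control (log2 fold change -1.43, SE 0.14, edgeR adjusted p = 5.23e-06). Genes on the opposite strand cover 18.7% of its exonic bases. RAE1, an mRNA export factor bound to NUP98, had 31.3, 37.8 and 35.1 CPM after 5-FU and 54.8, 40.7 and 52.1 CPM in control (log2 fold change -0.50, SE 0.14, edgeR adjusted p = 0.00712). The call of RAE1 was lost with upper-quartile factors (-0.14, edgeR adjusted p = 0.332) and at a mean count of at least 50 (-0.25, edgeR adjusted p = 0.111). NUP214, of the cytoplasmic filaments, was not called (-0.17, edgeR adjusted p = 0.296). AAAS, which encodes the ALADIN protein, had 62.3, 58.8 and 69.8 CPM after 5-FU and 58.7, 58.4 and 74.8 CPM in control. Its groups overlapped (-0.0070, edgeR adjusted p = 0.964), and its sign changed in 6 of 18 alternatives.

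In the nuclear basket NUP50, which helps release cargo from importin alpha, had 100, 149.8 and 139 CPM after 5-FU and 296, 232 and 264 CPM in control (log2 fold change -1.03, SE 0.16, edgeR adjusted p = 1.83e-04). NUP153, a basket protein with phenylalanine-glycine repeats, had 59.5, 62.0 and 57.3 CPM after 5-FU and 141, 91.6 and 131 CPM in control (log2 fold change -1.02, SE 0.15, edgeR adjusted p = 1.22e-04). Both were lower with groups apart, where 35.9% of all tested genes were lower without overlap. TPR, the coiled-coil filament of the basket, had 94.0, 108 and 112 CPM after 5-FU and 124, 106 and 134 CPM in control and was not called (-0.21, edgeR adjusted p = 0.158).

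Among the membrane anchors NDC1 and NUP210 fell and NUP210L rose. NDC1 (ENSG00000058804, chromosome 1, 53765460 to 53838860, minus strand) had 21.8, 27.6 and 26.4 CPM after 5-FU and 109, 78.7 and 132 CPM in control (log2 fold change -2.07, SE 0.18, edgeR adjusted p = 3.51e-06). NUP210 (ENSG00000132182, chromosome 3, 13316235 to 13420309, minus strand), a pore membrane glycoprotein, had 210.1, 215 and 207 CPM after 5-FU and 640.0, 599 and 665 CPM in control (log2 fold change -1.59, SE 0.13, edgeR adjusted p = 2.12e-06). Its spread within each group was narrow beside the gap between them. POM121 was lower (-0.90), and so was its close copy POM121C (-0.52). Reads can be shared between these copies, so the values of each are uncertain.

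NUP210L (ENSG00000143552, chromosome 1, 153992685 to 154155116, minus strand), a paralog of NUP210 known from testis, was the member that rose most. It had 8.56, 4.22 and 3.69 CPM after 5-FU, from 168, 81 and 78 counts, and 0.583, 0.949 and 0.740 CPM in control, from 13, 21 and 15 counts. The groups were apart, and 5-FU replicate 1 stood above the other treated libraries. The rise was 7.24-fold (log2 fold change 2.86, SE 0.38, edgeR adjusted p = 4.79e-05), called in all 16 alternatives that tested it. Per gene length it still reached only 0.866 FPKM after 5-FU, against 0.133 FPKM in control, while NUP210 had 24.2 FPKM after 5-FU and 80.5 FPKM in control. Of the 5 bins of mean CPM, counted from the lowest, NUP210L lay in bin 2. In that bin 54.2% of all genes were higher, at a median log2 fold change of 0.78.

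The members also moved together within a group. Control replicate 2 was the lowest control library for 48 of the 54 tested members, and for 40.2% of all tested genes. Its member values had a median of 0.785 of the mean of the other control libraries, against 0.980 over 19517 tested genes counted in each control library. The exceptions were IPO7, IPO13, NUP133, KPNA5, NUP210L and XPOT. Among 5-FU libraries replicate 1 was the lowest for 36 of the 54 members and for 37.3% of all tested genes. The G2 and mitosis list was lowest in the same libraries. Its summed level was 167 CPM in 5-FU replicate 1 and 330.3 and 304 CPM in replicates 2 and 3, and in control 3217 CPM in replicate 2 and 4613 and 5785 CPM in replicates 1 and 3. Its part in this pattern was not tested. Without control replicate 2, 49 members were called lower and 2 higher, at a median of -1.02, and without 5-FU replicate 1, 43 were lower and 2 higher, at a median of -0.81.

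**Figure D5:**
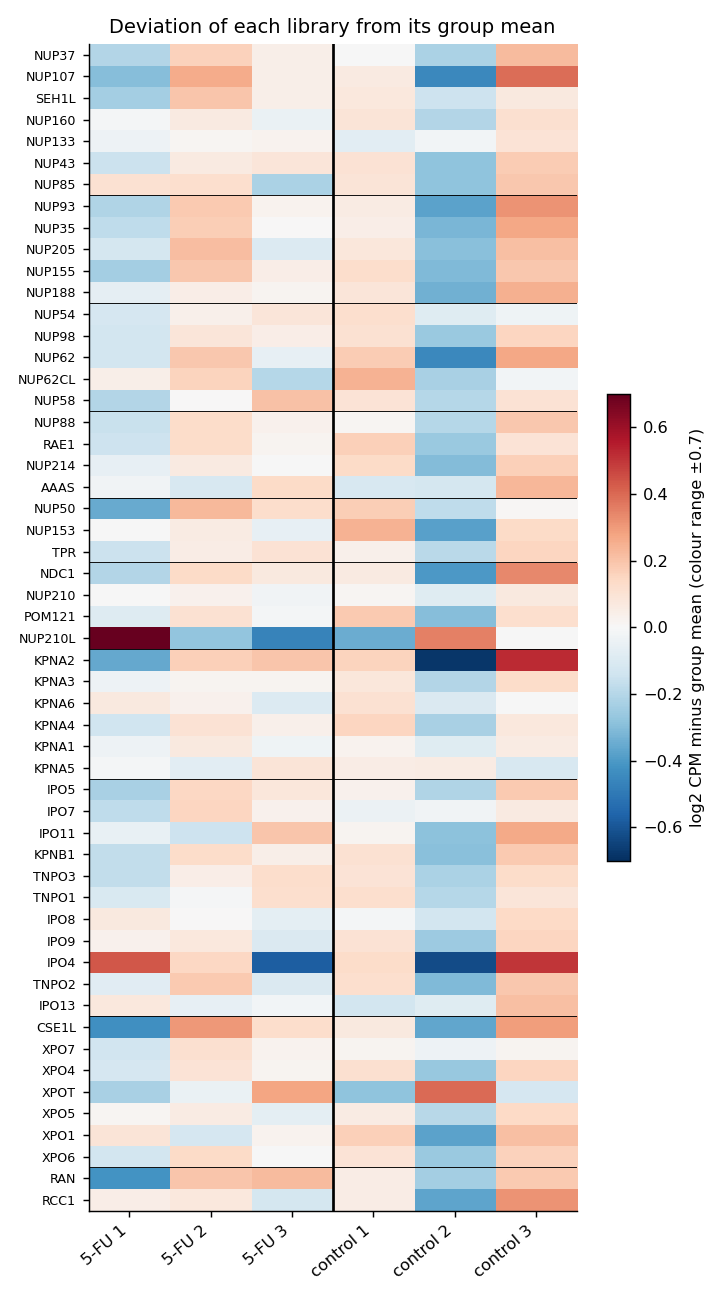
Log2 CPM of each library minus the mean of its own group for the 54 tested members, with blue below and red above that mean and lines between roles. Control replicate 2 is the lowest control library for 48 members, and 5-FU replicate 1 is the lowest treated library for 36.

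Other genes of the pore and of the Ran cycle, from a fixed list of 20, were mostly lower too. Of these, 17 were lower, 1 was higher and 2 were not called, at a median of -0.61. Over all tested genes 33.9% were lower and 36.3% higher, and in the bin of highest mean CPM 60.3% were lower. With upper-quartile factors 10 were lower and 3 higher, at a median of -0.25, and at a mean count of at least 50 these were 12, 3 and -0.36. RANBP1, NMD3 and SNUPN had the smallest p. NMD3, the export adaptor of the large ribosomal subunit, had 37.4, 42.6 and 46.3 CPM after 5-FU and 94.0, 94.8 and 95.9 CPM in control (log2 fold change -1.17, SE 0.12, edgeR adjusted p = 7.06e-06). SNUPN, the import adaptor of spliceosomal snRNPs, had 7.59, 8.45 and 9.09 CPM after 5-FU and 22.0, 21.4 and 24.4 CPM in control (log2 fold change -1.43, SE 0.15, edgeR adjusted p = 7.86e-06), and other genes cover 31.6% of its exonic bases. The gene that was higher, named after its value was seen, was NUPL2, a nucleoporin of the cytoplasmic filaments also known as NUP42 (log2 fold change 0.61, SE 0.12, edgeR adjusted p = 7.96e-04). It had 46.8, 52.5 and 46.6 CPM after 5-FU and 34.4, 29 and 32.1 CPM in control, and exons of an antisense gene cover 13% of its exonic bases.

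Of 20 factors of mRNA export 10 were lower, 6 higher and 4 not called, at a median of -0.37. Over all tested genes 33.9% were lower and 36.3% higher, at a median of 0.09. Of the 6 that were higher, SARNP and ZC3H11A had few counts. SARNP had 29, 41 and 28 counts after 5-FU and 7, 7 and 6 in control. ZC3H11A had 16, 13 and 17 after 5-FU and 8, 7 and 4 in control. With upper-quartile factors 8 were lower and 9 higher, at a median of -0.015. DESeq2 called 11 lower and 3 higher. ALYREF, an adaptor that brings mRNA to the export receptor, had 18.8, 24.9 and 26 CPM after 5-FU and 138, 95.1 and 169 CPM in control (log2 fold change -2.53, SE 0.21, edgeR adjusted p = 2.40e-06). THOC7, of the THO complex, had 12.1, 14.1 and 15.9 CPM after 5-FU and 43.0, 42.6 and 47.8 CPM in control (log2 fold change -1.67, SE 0.14, edgeR adjusted p = 2.58e-06). DDX39B, the helicase that works with both, was higher. It had 492, 498 and 427 CPM after 5-FU and 184, 159.6 and 159 CPM in control (log2 fold change 1.5, SE 0.13, edgeR adjusted p = 3.69e-06). A readthrough gene covers 29.7% of the exonic bases of DDX39B. NXF1, the mRNA export receptor, named after its value was seen, was higher as well (log2 fold change 0.76, SE 0.13, edgeR adjusted p = 2.59e-04).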

How the data were processed

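Gene-level RNA-seq of HCT-8 cells was analysed in 3 5-FU and 3 control libraries. The submitters' processing notes list build GRCh38 and the tools featureCounts (1.5.0-p3), HISAT2 (2.0.5) and DESeq2 (1.16.1), and the sources used here give no strand or multi-mapping setting. Per the labels' protocols, libraries came from the NEBNext Ultra RNA kit. The deposited counts are whole numbers per gene. The deposited FPKM equal count over gene length over 1 constant per library, 0.892 to 0.986 times the count total in control and 1.07 to 1.16 times in 5-FU libraries. Positions of 58724 of the 58735 genes matched GENCODE 29, from which exon overlaps were taken.

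The fit used edgeR 4.0.16 in R 4.3.3 on all 6 libraries: filterByExpr (minimum count 10, total 15), TMM, group alone, quasi-likelihood test, Benjamini-Hochberg adjustment over 19771 genes. SE is the unshrunk coefficient over the root of F. The members, lists and rules were chosen with earlier results of these data known. Named for per-library values were, per role, up to 3 called members of smallest p, members called against the main direction and the 3 of highest FPKM, which gave 28; the others printed in full were chosen after their values were seen. In the other lists, up to 3 of smallest p were named. Same-numbered libraries did not deviate together (correlations -0.07, -0.20 and 0.06). With 3 libraries per group this cannot decide whether samples were paired, and the main fit did not pair them. Of the 49 promoters 46 were found in transcripts in the sense of the gene and 0 in antisense.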

Additional observations from a re-analysis of the deposited data

How the results depend on the processing

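Of 54 tested members 39 kept their direction and their side of the threshold in every alternative that tested them, which was all 18 except for NUP210L, tested in 16. The count of lower members ran from 37 to 49 and that of higher members from 1 to 4. With upper-quartile factors 37 were lower and 4 higher; those factors moved the median of all genes by 0.36 and that of the members to -0.53, while the members' median minus that of all genes was -0.98 with either scaling. The split over all genes was then 4614 lower and 9602 higher, against 6706 lower and 7171 higher with TMM. Plain totals moved the median of all genes by 0.11. At a mean count of at least 50 the member median was -0.64. In limma-trend on log2(FPKM + 1) and log2(FPKM + 0.1) with a filter on low values, which left 52 members and not NUP210L, 1 member was higher, and 4320 and 4268 of all genes were higher, against 7136 and 7119 lower. Without the filter log2(FPKM + 1) gave 2 higher members, and 6926 higher and 6902 lower genes. These scales understate changes of low genes.

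Leaving out each library in turn gave 43 to 49 lower and 2 to 3 higher members, a member median of -1.02 to -0.81, and 6318 to 6830 lower and 6639 to 7274 higher genes. With the replicate block 43 members were lower and 2 higher. DESeq2 called 47 lower and 2 higher, limma-voom 45 and 3.

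With upper-quartile factors the log2 fold change changed sign for XPO6 (0.025), TNPO2 (0.072), TPR (0.15), NUP214 (0.20), AAAS (0.35, called higher), KPNA1 (0.063), NUP85 (0.048) and IPO4 (0.051). At a mean count of at least 50 it did so for TPR (0.040), NUP214 (0.087) and AAAS (0.24). AAAS also changed sign with plain totals (0.10), without control replicate 3 (0.083), without 5-FU replicate 1 (0.025) and without 5-FU replicate 2 (0.035), and leaving out 1 library at a time gave it -0.10 to 0.083. Calls of KPNA4, KPNA6, NUP43 and XPO5 were lost with upper-quartile factors, and those of RAE1 and XPO1 there and at a mean count of at least 50. The cause was not tested. The printed SE come from the fit and include its estimate of the spread between libraries as well as counting error. Counts of IPO4 and KPNA7 were at most 20 in any library.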
